A study of Mus musculus with 2 samples.

Results

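Genes of radial glia and of the first steps of gliogenesis were followed in the embryonic mouse hindbrain, 9 of 43346 Ensembl genes in the tables. They were chosen by name: the nuclear factor I genes Nfia, Nfib, Nfic and Nfix, and Fabp7, Slc1a3, Aldh1l1, Ptprz1 and Mbp. The rule sets no threshold on a measured value, though earlier results of these data were known when the genes were picked. Total RNA longer than 200 nt was sequenced from 2 pools of hindbrains, dissected from healthy B6NCrl embryos of both sexes at embryonic day 11.5. Pool 1 combined 109 embryos and pool 2 combined 88, 10 ng of RNA went into each library, and ERCC spike-in RNAs were added. Both pools belong to the same group, with no genetic change or treatment, so the data give levels and their spread between pools, and no contrast between conditions.

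Radial glia are the bipolar stem cells of the embryonic neural tube. They first give rise mainly to neurons and later to astrocytes and oligodendrocytes. Nuclear factor I proteins are transcription factors that bind the palindrome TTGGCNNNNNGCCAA, or one side of it, as dimers, and NFIA and NFIB are required for the normal onset of gliogenesis. Fabp7 (brain lipid-binding protein) and Slc1a3 (the glutamate transporter GLAST) mark radial glia and later astrocytes, Aldh1l1 is a widely used astrocyte marker, Ptprz1 is a receptor phosphatase of radial glia and oligodendrocyte precursors, and Mbp encodes a structural protein of myelin.

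The 4 nuclear factor I genes arose by duplication, so it matters for their separate levels how far reads can tell them apart. Exon 2, which encodes most of the DNA-binding domain, is 532 nt long in all 4, and 351 of its positions are identical in every gene. The stretch from position 53 to 112 of that exon is shown because 48 of its 60 positions are identical in all 4, with capitals at the positions that are not. Sequences are from the mm10 (GRCm38) genome, 5′ to 3′ on the coding strand: chr4:97783134-97783193 (plus strand) for Nfia, chr4:82498658-82498717 (minus) for Nfib, chr10:81420687-81420746 (minus) for Nfic and chr8:84772204-84772263 (minus) for Nfix.
Nfia: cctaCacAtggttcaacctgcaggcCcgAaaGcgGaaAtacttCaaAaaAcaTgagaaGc
Nfib: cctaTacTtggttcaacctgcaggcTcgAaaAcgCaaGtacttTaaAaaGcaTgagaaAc
Nfic: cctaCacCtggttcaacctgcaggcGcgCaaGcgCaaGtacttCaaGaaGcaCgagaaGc
Nfix: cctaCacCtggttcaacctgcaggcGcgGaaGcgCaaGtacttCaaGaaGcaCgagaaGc

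Across the whole exon, Nfic and Nfix were the closest pair at 82% identity and Nfia and Nfic the most distant at 75.8%. The longest run that any pair shared was 32 nt, between Nfic and Nfix. Over all annotated transcripts, each read on its own strand, no stretch of 100 nt in any nuclear factor I gene occurred in another gene. The opposite strand was not searched. The same held for Fabp7, Slc1a3, Mbp and Ptprz1. Aldh1l1 shared 6 of its 4501 stretches of 100 nt, or 0.133%, with Gm45901, an overlapping non-coding gene that is absent from the tables used here.

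The second sequence shown is the DNA just before the first base of the leading Fabp7 transcript, because Fabp7 was the most abundant of the 9 genes. It is chr10:57784673-57784880, plus strand, from the RefSeq promoter table (build GRCm38.p6), with capitals marking a shortened nuclear factor I palindrome.
Fabp7: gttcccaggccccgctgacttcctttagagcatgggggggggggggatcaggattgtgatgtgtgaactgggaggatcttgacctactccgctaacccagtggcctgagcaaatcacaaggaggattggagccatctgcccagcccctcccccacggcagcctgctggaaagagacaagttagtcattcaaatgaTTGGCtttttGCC

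The capitals end at the base before the start of Fabp7-201. RefSeq places the start 42 nt further downstream, at that of the minor model Fabp7-202. The window runs on past that start to 300 nt in the table. One arm of the palindrome, TTGGC read on either strand, occurred in 46.7% of 32817 RefSeq windows of that length. The Fabp7 window held it once, 55 nt before the RefSeq start, which is the copy in capitals. The full palindrome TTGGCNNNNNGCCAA, searched on both strands, occurred in 12 windows (0.0366%) and in no window of the 7 genes searched (all but Nfib and Mbp). The shortened form TTGGCNNNNNGCC, which was picked after the Fabp7 sequence had been seen, occurred in 453 windows (1.38%) on either strand. Every full palindrome also holds the shortened form and the single arms. Single arms also occurred in 3 of the Nfix windows, and in no window of Nfia, Nfic, Slc1a3, Aldh1l1 or Ptprz1. The only Nfia window, chr4:97581693-97581992, lies far upstream of the first annotated base of Nfia, chr4:97772734. The starts of the Nfia models measured here were therefore not searched. These are matches of letters, not measured binding.

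Levels are given in TPM, a relative abundance that accounts for transcript length and is scaled to the same total in each library, spike-ins included. The 2 libraries held 45340440 and 41261544 expected counts, of which spike-ins took 7.405% and 10.73%. Because spike-ins took 16.16% and 22.22% of TPM, a ratio between the pools is given relative to the median of 14942 Ensembl genes whose mean TPM was 1 or more. Its log2 ratio of pool 2 over pool 1 was -0.11 on the log2(TPM + 1) scale. Hindbrain markers were present in both pools: Hoxa2 was at 49.3 and 48.1 TPM and Hoxb2 at 48.9 and 46.4 TPM, and 8 of 9 such markers reached 1 TPM in both. Forebrain markers reached it in 1 of 5 (Lhx2, 18.4 and 15.1 TPM). All 7 neuronal markers were detected, and so were all markers listed for mesenchyme, endothelium, macrophages, erythroid cells, otic epithelium and choroid plexus, so these are whole-tissue levels. In such bulk samples, fewer cells of a type and less RNA per cell cannot be told apart.

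All 9 genes reached 1 TPM in both pools, against a background of 33% of all Ensembl genes and 59.4% of the 21461 protein-coding nuclear genes. Their levels covered a wide range, from 970 TPM on average for Fabp7 to under 2 TPM for Nfix and Aldh1l1. Only Fabp7, Slc1a3, Nfia and Nfib lay above 17.0 TPM, the median of the 13020 protein-coding nuclear genes whose mean TPM was 1 or more. The deposited tables attach to each TPM an interval of unstated level, which reflects read counting and assignment within 1 library, and a mean ± SD over the 2 pools is given beside it.

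**Figure D1:**
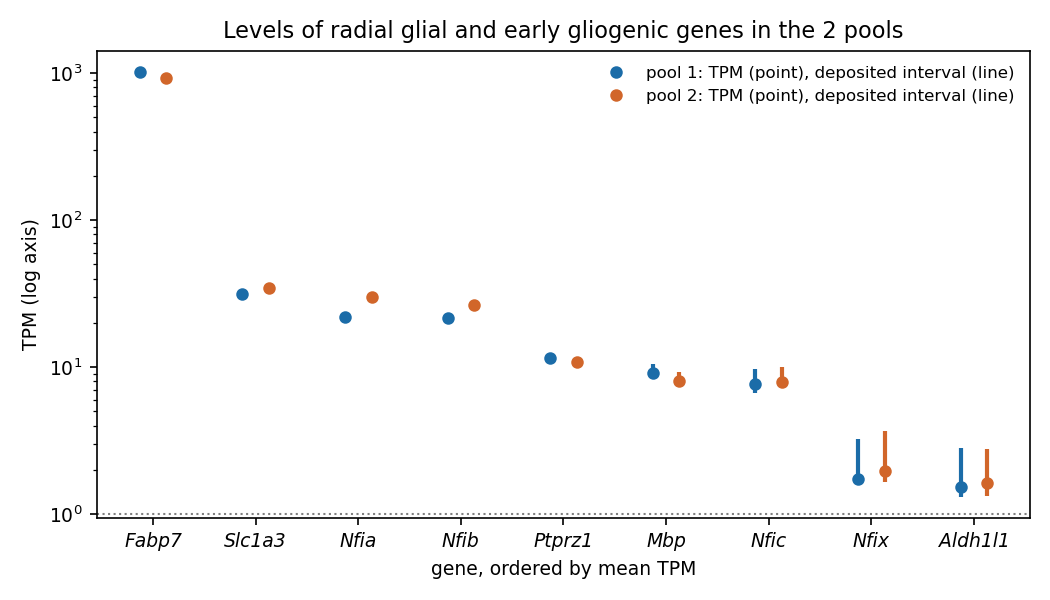
TPM of each gene in pool 1 (blue) and pool 2 (orange) on a log axis, with the deposited interval as a vertical line where it exceeds the point and a dotted line at 1 TPM. Fabp7 sits at 1016 and 923 TPM, Slc1a3, Nfia and Nfib between 21.47 and 34.49 TPM, and Nfix and Aldh1l1 just above 1 TPM with the widest intervals for their level.

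Fabp7, on chr10:57784881-57788450, binds long-chain fatty acids in radial glia. It measured 1016 TPM in pool 1 (21110 reads) and 923 TPM in pool 2 (18433 reads), or 970 ± 65.8 TPM (SD, n = 2). That placed it 62nd among the protein-coding nuclear genes by mean TPM. The pool intervals, 983 to 1010 and 892 to 918 TPM, did not overlap, and each TPM lay slightly above its own interval, which is drawn around a separate posterior mean of 997 and 905 TPM. Relative to the median gene the log2 ratio of the pools was -0.03, so the gap between the pools was close to that of the median gene. Fabp7 stood at 29.4 times Slc1a3, the next gene, on the TPM scale.

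Of 8 other fatty acid binding protein genes, 2 were detected. Fabp5, an epidermal and neural form, was at 468 and 412 TPM, and Fabp3, the heart form, at 21.5 and 18.6 TPM. Fabp4 had 1 and 5 reads, and 5 genes, Fabp12 among them, were listed at 0 in both pools. Fabp7 was thus the most abundant of the 9 fatty acid binding protein genes measured, at more TPM than all the rest together in each pool (490 and 431 TPM).

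Slc1a3, on chr15:8634124-8710764, carries glutamate into radial glia and astrocytes. It measured 31.5 TPM (3422 reads) and 34.5 TPM (3163 reads), or 33.0 ± 2.15 TPM (SD, n = 2). The intervals, 30.1 to 32.8 and 32.6 to 36.1 TPM, overlapped. Among its 6 relatives, the amino acid transporters Slc1a4 (14.6 and 13.3 TPM) and Slc1a5 (11.5 and 10.2 TPM) and the astrocytic glutamate transporter Slc1a2, also called GLT-1 (12.5 and 13.6 TPM), were detected. The retinal form Slc1a7 was listed at 0 in both pools. Slc1a3 exceeded each of these relatives in both pools.

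Nfia, on chr4:97772734-98118874, measured 21.9 TPM (4643 reads) in pool 1 and 30.1 TPM (5516 reads) in pool 2, or 26.0 ± 5.80 TPM (SD, n = 2). Nfib, on chr4:82290173-82705750, measured 21.5 TPM (3324 reads) and 26.4 TPM (3828 reads), or 23.9 ± 3.46 TPM. Both were higher in pool 2, and neither gene's intervals overlapped between the pools (20.0 to 23.3 and 27.6 to 32.1 TPM for Nfia; 20.3 to 22.5 and 25.005 to 27.5 TPM for Nfib). Nfia was above Nfib in each pool, by 1.02 and 1.14 times in TPM, but the pool ranges of the 2 genes overlapped. Slc1a3 lay above both in each pool, although its lower value, 31.5 TPM, was closer to the upper value of Nfia than the pools of Nfia were to each other.

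Nfic, on chr10:81396186-81455635, is known for its part in tooth root formation. It measured 7.67 TPM (850 reads) and 7.95 TPM (942 reads), or 7.81 ± 0.198 TPM (SD, n = 2). Nfix, on chr8:84699876-84800344, acts in neural stem cells and muscle. It measured 1.74 TPM (135 reads) and 1.95 TPM (161 reads), or 1.85 ± 0.148 TPM. The intervals overlapped between pools for both genes, and that of Nfix was wide for its level, at 1.68 to 3.25 and 1.66 to 3.68 TPM.

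Summed over the family, nuclear factor I transcripts came to 52.8 and 66.4 TPM, or 59.6 ± 9.61 TPM (SD, n = 2). Nfia held 41.5% and 45.3% of that sum and Nfib 40.7% and 39.7%. Nfic held 14.5% and 11.98%, and Nfix 3.30% and 2.94%. The family was therefore made up mostly of Nfia and Nfib in both pools. These shares count every transcript model of a gene, non-coding ones included. Over coding models alone, Nfia was at 19.96 and 27.63 TPM and Nfib at 9.24 and 10.99 TPM. Nfic was then at 6.7 and 7.34 TPM and Nfix at 1.75 and 1.27 TPM. The sum was higher in pool 2, where Nfia was higher by the most TPM (21.88 and 30.08), while the share of Nfib moved by less than 1 point.

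Aldh1l1, on chr6:90486427-90600203, encodes the folate enzyme 10-formyltetrahydrofolate dehydrogenase. It measured 1.53 TPM (117 reads) and 1.63 TPM (110 reads), or 1.58 ± 0.0707 TPM (SD, n = 2), with overlapping intervals of 1.32 to 2.83 and 1.32 to 2.77 TPM. It was the lowest of the 9 genes in both pools. The 9 listed genes of the folate cycle and its relatives were all detected, led by the serine and one-carbon enzymes Shmt2 (44.0 and 37.5 TPM), Mthfd1 (38.8 and 29.6 TPM) and Mthfd2 (33.2 and 27.1 TPM). The mitochondrial counterpart Aldh1l2 was the lowest of those, at 5.50 and 6.04 TPM, and it too exceeded Aldh1l1.

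Ptprz1, on chr6:22875502-23052916, measured 11.6 TPM (2708 reads) and 10.9 TPM (2450 reads), or 11.2 ± 0.474 TPM (SD, n = 2). Its intervals, 10.9 to 11.8 and 10.2 to 11.1 TPM, overlapped. All 10 listed ligands and partners were detected. The secreted growth factors midkine (Mdk, 723 and 677 TPM) and pleiotrophin (Ptn, 125 and 107 TPM), both ligands of the receptor, and the adhesion molecule Ncam1 (95.8 and 70.8 TPM) were the most abundant. The matrix protein tenascin-C (Tnc) was the least, at 3.25 and 3.08 TPM.

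Mbp, on chr18:82475146-82585637, measured 9.05 TPM (938 reads) and 8.01 TPM (764 reads), or 8.53 ± 0.735 TPM (SD, n = 2), with overlapping intervals of 8.67 to 10.6 and 7.65 to 9.33 TPM. Its pool range did not overlap that of Nfic, the next gene down, but the gap between 8.01 and 7.95 TPM was smaller than the spread within Mbp. The same holds for Nfix and Aldh1l1, whose nearest values were 1.74 and 1.63 TPM. The remaining steps in the order, from Fabp7 to Slc1a3, from Nfib through Ptprz1 to Mbp, and from Nfic to Nfix, were steps between pool ranges that did not overlap.

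Genes listed here as regulators of gliogenesis were broadly present. Of 16 listed, 15 were detected, with a median of 28.6 ± 1.27 TPM (SD of the list's median over 2 pools), against 14.2 TPM over the 14942 Ensembl genes. The inhibitors of differentiation Id3 (341 and 333 TPM) and Id1 (125 and 116 TPM) and the Notch effector Hes5 (202 and 109 TPM) were the highest, and the stress-response factor Atf3 (1.15 and 0.99 TPM) the lowest. Sox9, which acts with NFIA in glial precursors and was named after its value was seen, was at 103 and 87.3 TPM. The 3 listed targets shared by NFIA and SOX9 in spinal cord glia were at low levels: Zcchc24 at 10.9 and 9.25, Apcdd1 at 4.50 and 5.01 and Mmd2 at 3.77 and 3.41 TPM.

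Of 16 other radial glial and neuroepithelial genes, 15 reached 1 TPM in both pools; the median was 50.1 ± 1.90 TPM. The intermediate filament gene Vim (1053 and 1018 TPM) and the acyl-CoA binding protein gene Dbi (504 and 441 TPM) reached the order of Fabp7, and Hopx, a marker of outer radial glia, was at 0.52 and 0.58 TPM. Of 13 astrocyte genes, 9 reached 1 TPM in both pools, and the list had a median of 12.4 ± 1.05 TPM. The lipid carrier Apoe (144 and 149 TPM), the gap junction gene Gja1 (121 and 108 TPM) and glutamine synthetase Glul (95.1 and 93.0 TPM) were the highest, whereas Gfap, the intermediate filament of mature astrocytes, was at 0.15 and 0.08 TPM. Apoe is also a macrophage gene, and macrophage markers were detected here. The astrocyte list thus held genes that neuroepithelium and other cells share beside genes near 0.

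Genes of the oligodendrocyte lineage, the setting in which Mbp is best known, were at lower levels. Of 8 precursor genes, 5 reached 1 TPM in both pools, and the list had a median of 1.23 ± 0.0424 TPM. Pdgfra (20.6 and 17.4 TPM) is shared with mesenchyme and Sox10 (12.7 and 7.31 TPM) with neural crest, and Nkx2-2 (2.56 and 3.95 TPM) with ventral neural progenitors. Gpr17, a receptor of committed precursors, was lowest at 0.29 and 0.26 TPM. Of 10 myelin genes 5 did so, and that list had a median of 0.938 ± 0.110 TPM, with Cnp at 13.1 and 12.2 TPM and Cldn11 at 6.64 and 5.32 TPM. Opalin had no reads in either pool, which allows up to 3 reads per library. Of 8 Schwann cell precursor and crest markers 5 were detected and summed to 54.9 and 46.4 TPM, with Dhh lowest at 0.71 and 0.61 TPM and none at 0; their part in the levels of Mbp and Sox10 was not tested.

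Transcript models separated Mbp further. The gene has 16 models with starts in 3 places. Models of the upstream start, whose products are known as golli proteins and are made in neurons and immune cells as well as oligodendrocytes, begin within chr18:82475146-82475370. The 11 models of the downstream start, which encode the classic myelin proteins, begin within chr18:82554470-82554580, 79.324 kb further on. The 4 upstream models took 76.6% and 73.3% of Mbp TPM (74.96 ± 2.37%, SD, n = 2), with 856 and 662 reads. Downstream models took 13.9% and 22.7%, with 68.3 and 97.1 reads, and the remaining model, Mbp-214, 9.46% and 3.98%.

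Most of the upstream share belonged to a single model. Mbp-205 alone held 62.9% and 54.8% of Mbp TPM and 786 and 582 reads. Its last exon, chr18:82554320-82558703, makes up 91.4% of its 4797 nt, spans the downstream start, and for 3953 nt (82.4% of the model) lies in what is intron for every downstream model. Reads from unspliced RNA of downstream models would fall there too, and their part in this count was not tested. The other 3 upstream models had 69.5 and 79.9 reads, close to the 68.3 and 97.1 reads of downstream models. Of these upstream reads, 33.8 and 39.6 were assigned to Mbp-201, which shares 78% of its bases with downstream models. Its reads may therefore not be separable from theirs. With Mbp-205 left out, the upstream share was 37.1% and 40.9%. Mbp-208, which ends before the downstream start and shares no base with those models, was at 0.77 and 0.90 TPM.

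**Figure D2:**
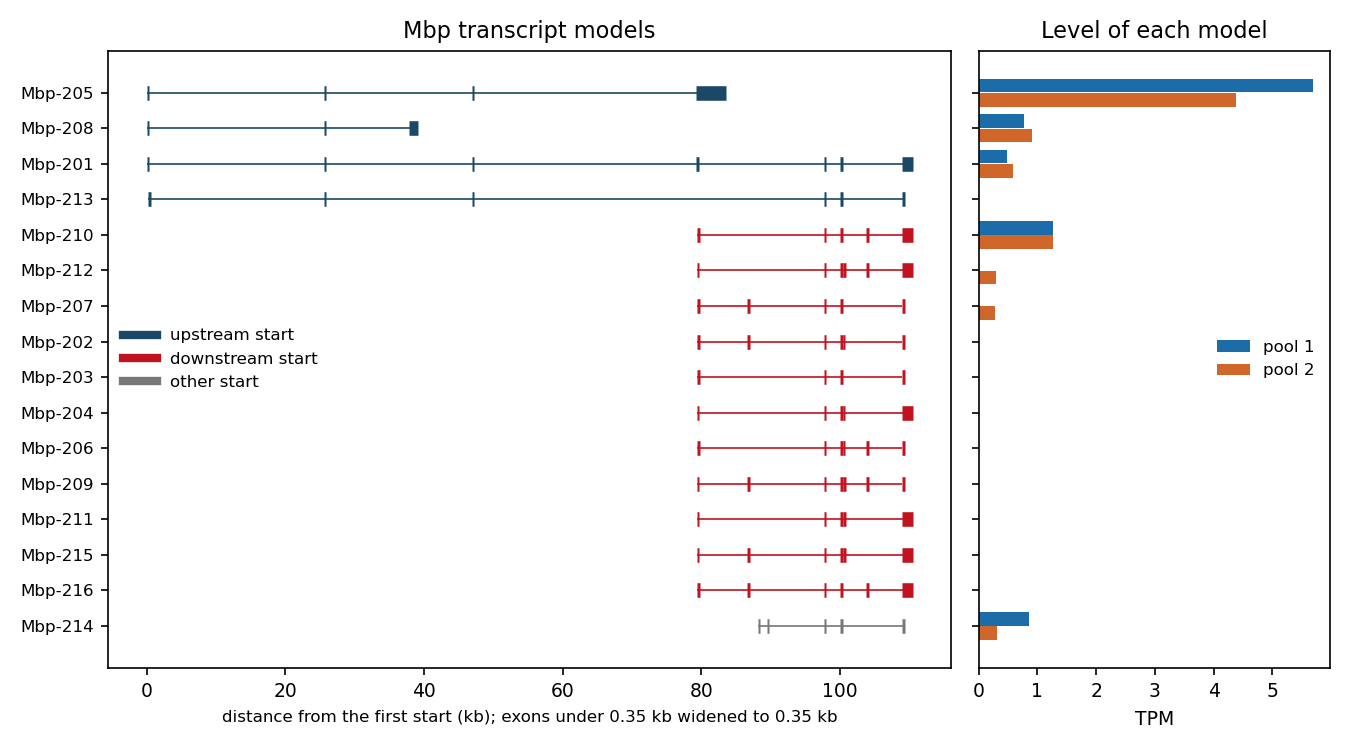
Exons of the 16 Mbp models by distance from the first start in kb (left, colour by start; short exons widened) and TPM of each model in the 2 pools (right). Mbp-205, at 5.69 and 4.38 TPM, exceeded every other model, and the other upstream and downstream models with reads lay at or below 1.26 TPM.

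For Nfib, models annotated as non-coding, mostly as retaining an intron, held more of the gene's TPM than the coding ones. Coding models took 43.1% and 41.7% of Nfib TPM, led by Nfib-202 with 37.7% and 35.1%. The retained-intron models Nfib-208 (36.3% and 34.98%, from 855 and 974 reads) and Nfib-207 (14.3% and 17.2%) held most of the rest. By reads rather than TPM, non-coding models were 35.4% and 36.7% of Nfib, since they are shorter. Restricted to coding models, Nfib stood at 9.24 and 10.99 TPM, below coding Nfia at 19.96 and 27.63 TPM. The similar levels of the 2 genes thus held over all models and not over coding models. The annotation lists 4 retained-intron models for Nfib and 0 for Nfia, so the restriction bears unequally on the 2 genes. Its part in the gap between them was not tested.

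Nfia was split among several coding models, and the split differed between the pools. Nfia-202, a model of 9526 nt, took 27.9% and 40.3% of Nfia TPM, with 1692 and 3233 reads. Nfia-204 took 19.3% and 14.6% with 1096 and 1092 reads. The 851 nt model Nfia-208 took 15.4% and 25.1% of TPM, but only 1.60% and 2.91% of reads (74.4 and 160 reads). With expected counts scaled by TMM in place of TPM, the ratio of Nfia between the pools relative to the median gene was 0.43 on the log2 scale, against 0.55 with TPM.

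Slc1a3 was mostly the full coding model Slc1a3-201, at 86.4% and 71.6% of its TPM. That model had 27.2 and 24.7 TPM, so it did not share the gene's higher value in pool 2. The retained-intron models of Slc1a3 had 120 and 245 reads, or 7.62% and 19.1% of its TPM. With coding models alone, Slc1a3 stood 0.01 above the median gene on the log2 scale, against 0.24 for the whole gene. That median is over whole genes, and against the median of coding models Slc1a3 stood 0.04 above.

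In the remaining genes, Fabp7-201 was 98.3% and 98.0% of Fabp7. Nfic was shared by Nfic-203 (37.4% and 42.03%) and Nfic-201 (29.9% and 38.8%). In Aldh1l1, Aldh1l1-201 took 59.9% and 52.1%, Aldh1l1-203 took 17.2% and 16.7%, and the retained-intron model Aldh1l1-204 took 22.9% and 31.2% from 5.71 and 7.96 reads. In Nfix, Nfix-201 led pool 1 (53.3%, against 15.1% in pool 2) and Nfix-204 led pool 2 (31.9% and 49.1%), while Nfix-208, with no reads and 1.5 reads, was listed at 0% and 20.2%. Shares of so low a gene rest on very few reads. By expected counts Nfix-204 led in both pools, with 87.9 and 145 reads. The tables list a single model for Ptprz1, so its receptor and secreted forms (the latter known as phosphacan) are not separated.

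Non-coding models took a larger share in pool 2 across the tables. Of 7524 protein-coding genes with both kinds of model, the median non-coding share was 10.9% in pool 1 and 13.3% in pool 2, and retained-intron models held 2.68% and 3.22% of reads on Ensembl genes. The share was over 5 points higher in pool 2 in 24.7% of those genes and in 3 of the 7 genes here with both kinds (Nfix, Slc1a3 and Aldh1l1). It was over 5 points lower in 9.88% and in 1 of 7 (Mbp). Counts of 3 and 1 of 7 are too few to set apart from those shares. Most of these shifts also rest on few reads. Non-coding models had 0 and 3.6 reads in Nfix, 5.71 and 7.96 in Aldh1l1 and 14.1 and 5.05 in Mbp. In Slc1a3 they had 169 and 312 reads.

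**Figure D3:**
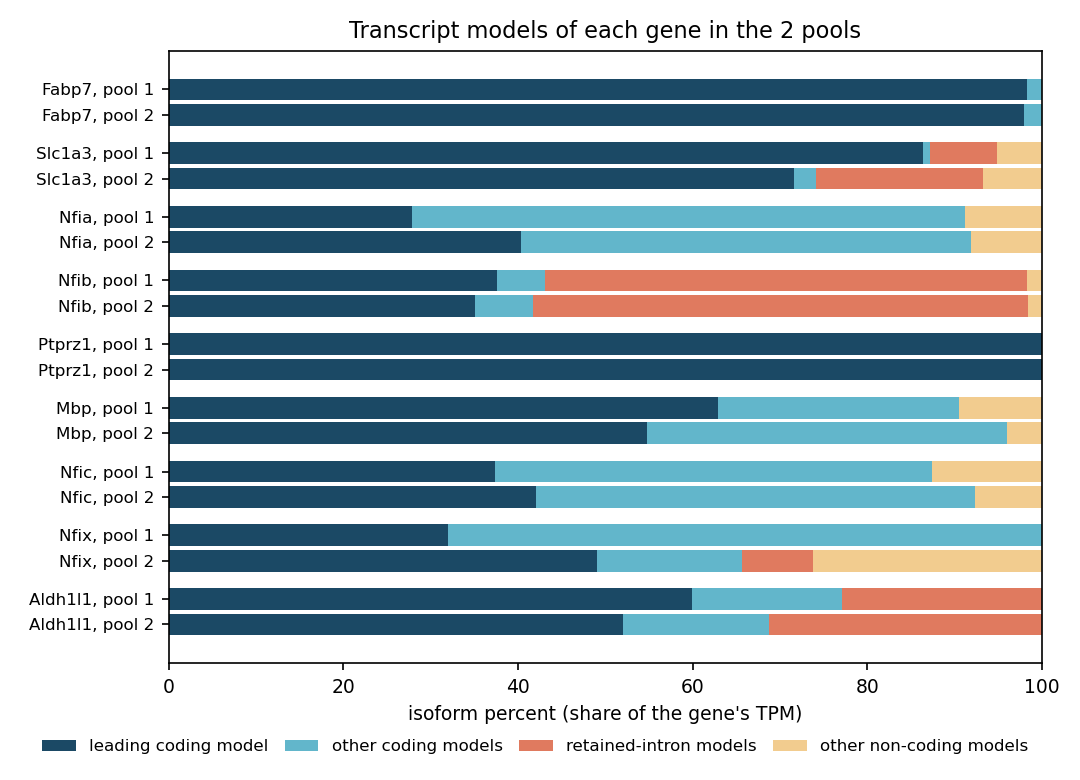
Share of each gene's TPM (isoform percent) in its leading coding model by mean share, other coding models, retained-intron models and other non-coding models, for each pool. Fabp7 and Ptprz1 were nearly or wholly 1 model, most of Nfib lay in non-coding models in both pools, and the retained-intron share of Slc1a3 was 7.62% in pool 1 and 19.1% in pool 2.

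Between the pools, none of the 9 genes differed by over 1.5-fold relative to the median gene, where 5.98% of the 14942 genes did. Nfia came nearest, 1.46-fold higher in pool 2 (log2 0.55), followed by Nfib at 1.31-fold (0.39). Slc1a3 (0.24), Nfix (0.22), Aldh1l1 (0.16), Nfic (0.15) and Ptprz1 (0.03) also lay above the median gene, and Fabp7 (-0.03) and Mbp (-0.05) below it. At 1.25-fold, a limit added after the values were seen, 2 of 9 genes were higher in pool 2 (Nfia and Nfib), where 13.1% of all genes were, and 0 of 9 lower, where 6.6% were. Deposited intervals did not overlap for 3 of 9 genes (Nfia, Nfib and Fabp7), against 40.4% of all genes, a share no higher than the background. With counts scaled by TMM in place of TPM, 3 of 9 genes were past 1.25-fold (Nfia 0.43, Nfib 0.39 and Nfix 0.35), and Nfic was at 0.32. With DESeq2 size factors all 4 nuclear factor I genes were past it (Nfia 0.44, Nfib 0.39, Nfic 0.34 and Nfix 0.44), while Slc1a3 was at 0.07 under both. With coding transcript models alone, Nfix turned to -0.17 and Mbp to 0.03. Against the median of coding models (-0.14 over 13001 genes), Nfia was at 0.59, just past 1.5-fold, and Nfix at -0.14.

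Among genes of 10 to 100 TPM, the central 95% of relative log2 ratios ran from -0.40 to 0.49. Nfia lay above that range and Nfib within it. Measured against the spike-ins instead of the median gene, all 9 genes were lower in pool 2, from -0.00342 for Nfia to -0.60 for Mbp, which is past 1.5-fold, so the direction of every gene above the median gene depends on that choice. With 1 library per pool, no test of these differences was possible.

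**Figure D4:**
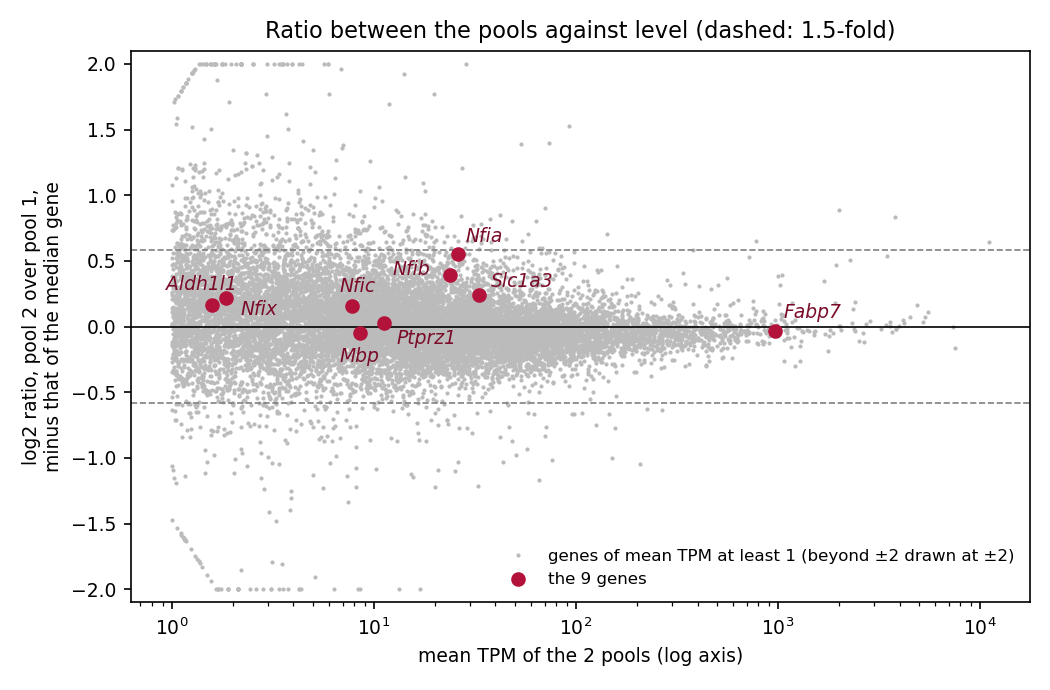
Relative log2 ratio of pool 2 over pool 1 against mean TPM (log axis) for the 14942 Ensembl genes (grey) and the 9 genes (red), with dashed lines at 1.5-fold. All 9 lie between the dashed lines, with Nfia at 0.55 nearest to the upper line and Fabp7 at -0.03 and Mbp at -0.05 just under 0.

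Nfia and Nfib also share a large size, spanning 346.1 and 415.6 kb of genome from first to last annotated base. Across protein-coding genes, the ratio between the pools moved with span, a pattern examined after the values were seen. The median relative log2 ratio was -0.02 in 3102 genes of under 10 kb and 0.145 in 796 genes of 200 kb or more, of which 26.8% were over 1.25-fold higher in pool 2, against 7.03% of the shortest class. Both genes lay above the upper quartile of 0.34 in their class. The part of span in their ratios was not tested. The gene E130114P18Rik, on the opposite strand and overlapping the 5′ end of Nfia, went the other way, from 27.5 to 19.7 TPM (820 and 554 reads).

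**Figure D5:**
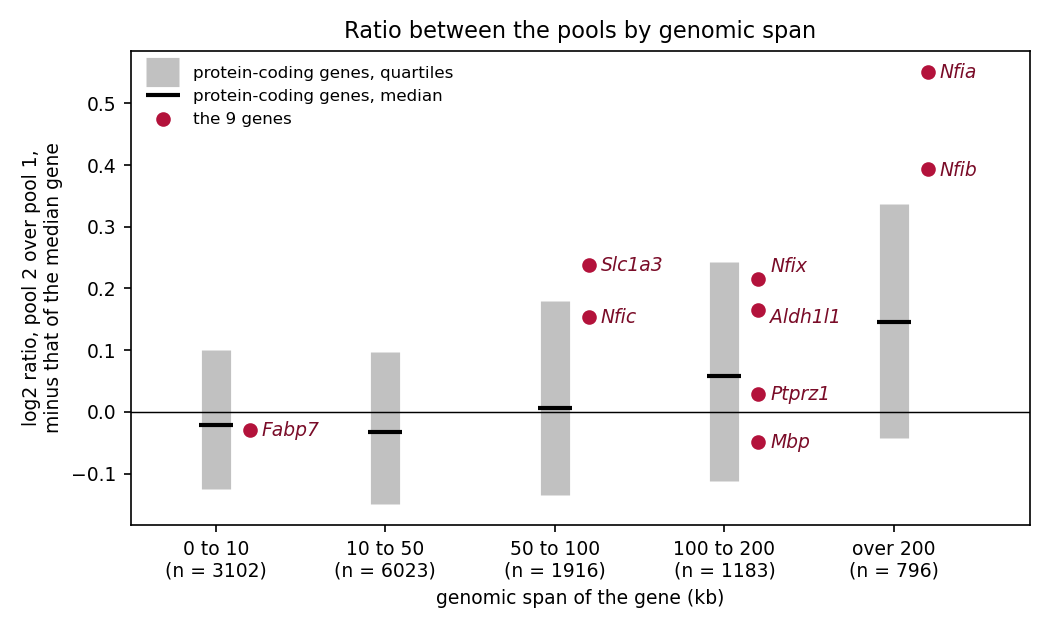
Relative log2 ratio of pool 2 over pool 1 for protein-coding genes in 5 classes of genomic span in kb (grey bars, quartiles; black lines, medians) with the 9 genes as red points. The medians run from -0.02 in the shortest class to 0.145 in the longest class, and Nfia (0.55) and Nfib (0.39) lie above the upper quartile of the longest class.

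Several genes overlap others in the annotation, and the strand setting of the counting is unknown here, so reads in the overlaps may not be separable. Beside E130114P18Rik, the overlapping genes with the most TPM were Gm16104, antisense to Nfic (6.53 and 7.85 TPM, 58 and 67 reads), and Lyl1, opposite Nfix (4 and 3.7 TPM). Gm11266, antisense to Nfib, was at 2.58 and 1.48 TPM. The TPM of Gm16104 was close to that of Nfic itself, from far fewer reads than the 850 and 942 of Nfic.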

How the data were processed

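Total RNA was measured in 2 pools of mouse hindbrain. Per the labels, extraction used mirVana, a Smart-Seq protocol document is linked and mm10 is the assembly, while a readme names GENCODE M4 as the annotation. The sources used here do not name the aligner, quantifier, strand setting or interval level. Per the file headers, the authors deposited for each gene and transcript an expected count, TPM and FPKM, and for transcripts the isoform percent. The interval bounds around a posterior mean TPM, treated here as signal values, are the authors' own. TPM is relative to all entries including spike-ins.

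Symbols, biotypes, exons and coordinates came from GENCODE vM21 (GRCm38), matched for 42462 of 43346 Ensembl identifiers; the 884 others held 0.189% of counts in each pool. Entries named by a number (26248 of 69691) held 3.53e-05% and 5.33e-05% of counts and were left out.

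Both samples form 1 group by their labels, and nothing was tested between groups. Ratios used log2(TPM + 1), which understates changes of low genes, minus the median over Ensembl genes whose mean TPM was 1 or more. Detection meant 1 TPM in both pools. As alternatives, expected counts were rescaled with factors from edgeR 4.0.16 (TMM) and DESeq2 1.42.0 in R 4.3.3. Both sets of factors were computed on counts rounded to whole numbers, and the unrounded counts were then rescaled. Tables used Python 3.11.15 with pandas 2.3.3. Only the step that computes ratios between the pools was tested on simulated gene counts. Nothing beyond the labels says how the pools were collected, so their spread may be partly technical.

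The 9 genes and all gene lists were chosen with earlier results of these data known. Named were the 9 genes, the 3 highest and the lowest of each related list, and transcripts with an isoform percent of at least 10 in both pools or differing by at least 20 points; other names were chosen after their values were seen. A few names picked this way are left out and not reported here.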

Additional observations from a re-analysis of the deposited data

How the results depend on the processing

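No paired analysis was possible because both pools belong to 1 group. The median level over the 9 genes was 11.2 TPM, 10.88 to 11.55 TPM with either pool left out, 16.01 TPM over protein-coding nuclear genes, 13.9 TPM without spike-ins and 7.47 FPKM. The nuclear factor I sum of 59.6 TPM was 39.8 FPKM, and 52.76 to 66.35 TPM with either pool left out. These shifts follow from what each unit divides by. The upstream share of Mbp, 74.96%, was 88.9% by counts, 80.4% over coding models, 70.6% from posterior means, 39.0% without Mbp-205 and 73.28% to 76.63% with either pool left out; posterior means and the omission of Mbp-205 were added after seeing the data, as were ratios over coding models and all counts at 1.25-fold. The number of genes above the median gene was 7 under 7 of the settings tried beside the main one, 8 for coding models against their own median and 0 relative to the 53 spike-ins with at least 100 reads; with coding models Nfix moved below the median gene and Mbp above it. The number past 1.5-fold was 0, but 1 relative to the spike-ins (Mbp) and 1 for coding models against their own median (Nfia). The number over 1.25-fold higher in pool 2 was 2 with TPM, 3 with TMM, 4 with DESeq2 size factors and 0 relative to the spike-ins. The TMM and DESeq2 settings also differed in the scale to which 1 was added before the log. All 9 genes were detected at 0.5 TPM and 7 at 5 TPM. The leading model was the same in both pools for 8 genes, or 9 by counts. At a level of 1.58 to 1.85 TPM, with 110 to 161 reads, depth limits what can be said of Aldh1l1 and Nfix and of their transcript models.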

Other observations

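Markers of other tissues near the hindbrain were uneven between the pools within each list. Among 4 otic and surface epithelial genes, Oc90 was 2.02-fold lower in pool 2 against the median gene (105 and 47.6 TPM), with a log2 ratio of -0.28 for Epcam, 0.28 for Krt8 and 0.13 for Krt18. Among 4 choroid plexus genes, the potassium channel subunit Kcne2 was 1.54-fold lower (17.4 and 10.1 TPM), with Ttr at -0.35, Clic6 at -0.35 and Folr1 at 0.07. Among 7 mesenchyme genes, the matrix proteoglycan Dcn was 2.04-fold higher (12.04 and 23.7 TPM), whereas the other 6 lay between -0.12 (Pdgfra) and 0.12 (Col1a1). Among 5 macrophage genes, Cx3cr1 was 1.53-fold higher (3.20 and 4.96 TPM), with Aif1 at 0.41, C1qb at 0.20, Csf1r at 0.02 and Tyrobp at -0.27.

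Within the 16 gliogenic regulators, 7 lay above the median gene. Hes5 was 1.71-fold lower in pool 2 (6603 and 3456 reads), Sox10 1.53-fold lower (974 and 540 reads) and Sox2 1.48-fold lower (25.2 and 15.4 TPM), whereas Notch1 was 1.33-fold higher (36.5 and 45.2 TPM) and Pou3f2 1.41-fold higher (33.5 and 44.2 TPM). These genes were singled out after their values were seen, and each difference is between 2 libraries with no replicate of either pool.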
